A study of Mus musculus with 50 samples.

Results

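The terminal end bud (TEB) is the bulb of dividing cells at the growing tip of a mammary duct in puberty. TEBs of DN-Clim mice at 8 and 10 weeks of age (6 arrays, 3 at each age) were set against TEBs of DN-Clim mice at 4 weeks (3 arrays). The 9 arrays were chosen by their titles, without regard to their values, out of 50 arrays in the study, 42 of them from laser capture. DN-Clim mice of both age groups carried a transgene in the CB6F1 background. The transgene places a dominant-negative Clim under the keratin 14 promoter, an element of basal cells. This protein keeps the domain that binds LIM proteins and lacks the one for dimers, and few cells of the TEB body express it. TEBs were cut by laser from frozen, stained gland sections, and each RNA went onto its own Affymetrix Mouse Gene 1.0 ST array. Only littermates were used for each age, and the effects of age and of litter cannot be told apart. WT TEBs at the same ages (4 arrays at 8 and 10 weeks, 3 at 4 weeks) and DN-Clim ducts (9 arrays) were used to see where the age difference of DN-Clim TEBs departed from theirs.

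Clims are cofactors without DNA binding of their own. They join LIM domain proteins such as LMO4 to DNA-bound factors, and as dimers they can bring distant sites together. The TEB has an outer layer of cap cells, which give rise to basal cells, around a body of luminal cells. Both layers divide as the duct extends into the fat pad. Growth slows as the ducts near the edge of the pad, and in the adult gland TEBs are normally gone.

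Values are probe set intensities, compared on the log2 scale, and a difference of 1 is a 2-fold change. The study took a gene as not expressed where it was under 200 in every sample. This limit is named for many genes with a group below it, though not for all. Median intensity was 194.2 to 213 on the 6 arrays at 8 and 10 weeks and 184.1 to 200.2 on the 3 at 4 weeks. Correlations between arrays were 0.927 to 0.969 among the 8 and 10 week arrays, 0.972 to 0.976 among the 4 week arrays and 0.845 to 0.937 between the groups. The arrays at 4 weeks were thus closer to each other than the later ones were. Keratins of both layers were high at all ages. Krt14 of basal cells had 930.6 to 1651 at 8 and 10 weeks and 1004 to 1090 at 4 weeks, and Krt8 of luminal cells had 5845 to 13650 and 9609 to 11030.

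Of 13362 genes tested, 2751 differed between 8 and 10 weeks and 4 weeks (20.6%), with 1263 higher (9.45%) and 1488 lower (11.1%) at an adjusted p under 0.05 from limma. Large differences lay mostly on the lower side. A difference of 2 or more on the log2 scale was reached by 15 of the genes that rose and by 152 of those that fell. The median log2 difference over all genes was 0.01. When all arrays were set to a common median it was −0.06, and 929 genes were higher and 1835 lower, 33.6% higher instead of 45.9%. The count rested on the few arrays at 4 weeks. Without replicate 1, 2 or 3 at 4 weeks it was 1705, 1671 and 1194, of which 1658, 1640 and 1186 were among the 2751.

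By list median, genes of cell division fell furthest among the lists. Of 31 tested genes of mitosis, all 31 fell, with a median log2 difference of −2.71, and of 31 genes of DNA replication, all 31 fell, with a median of −1.74. In none of the 62 did the groups overlap, against 14.1% of all genes that lay lower without overlap. In DN-Clim TEBs at 8 and 10 weeks the summed intensity of the mitosis genes was 2551 to 16500, against 26970 to 37800 at 4 weeks, and that of the replication genes was 6419 to 13590, against 26000 to 34040. In tissue that holds several cell types, fewer cells of a type and less RNA per cell cannot be told apart.

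Promoters of these genes were read for the letters of 3 motifs known from cell cycle genes: the CCAAT box, bound by NF-Y, the cell cycle homology region (CHR, TTTGAA), bound by the DREAM and MuvB complexes, and the E2F motif (TTTCCCGC or TTTGGCGC). Both strands were searched in the 250 bases before 1 RefSeq start per gene (GRCm38.p6). Where a gene had several promoters listed, only the first was read, which left 27025 of 32851. Each motif was searched on its own, whether or not it shared bases with another. Of the mitosis genes, 25 had a promoter in the reference, and 19 of these (76%) held CCAAT, 11 (44%) at 2 or more places, and 10 (40%) held TTTGAA. Over all 27025 promoters the shares were 34.5%, 10.5% and 16.3%. Of the replication genes, 26 had a promoter, of which 16 (61.5%) held CCAAT, 3 (11.5%) TTTGAA and 5 (19.2%) an E2F motif, which 1.35% of all promoters held and none of the 25 mitosis promoters did. These shares describe letters in a window and are no evidence of binding. The 130 bases before the start are printed for 4 genes that together show the 3 motifs, in capitals on whichever strand they lie (ATTGG and TTCAAA are the reverse complements of CCAAT and TTTGAA). They are Bub1 (chr2:127831860-127831989, minus strand) and Top2a (chr11:99024190-99024319, minus strand) of mitosis, and Rrm2 (chr12:24708124-24708253, plus strand) and Mcm6 (chr1:128359706-128359835, minus strand) of DNA replication.
Bub1: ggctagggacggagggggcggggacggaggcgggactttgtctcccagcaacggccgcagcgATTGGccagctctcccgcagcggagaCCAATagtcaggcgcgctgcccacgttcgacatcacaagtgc
Top2a: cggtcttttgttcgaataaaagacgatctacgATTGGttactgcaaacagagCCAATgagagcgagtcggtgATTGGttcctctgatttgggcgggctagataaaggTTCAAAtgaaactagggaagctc
Rrm2: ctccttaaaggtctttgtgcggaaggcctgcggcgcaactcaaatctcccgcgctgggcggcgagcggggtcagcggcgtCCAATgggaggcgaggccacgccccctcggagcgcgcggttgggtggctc
Mcm6: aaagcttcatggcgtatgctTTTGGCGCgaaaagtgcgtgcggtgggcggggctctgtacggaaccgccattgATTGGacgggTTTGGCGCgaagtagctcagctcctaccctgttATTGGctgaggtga

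Bub1, a kinase of the checkpoint that holds mitosis until chromosomes are attached, had 408.2, 145.1 and 31.43 at 8 weeks and 52.97, 34.12 and 116 at 10 weeks, against 821.9, 926.6 and 1060 at 4 weeks. Of the later arrays, 8 week replicate 1 was high and still lay below all 3 at 4 weeks, and 5 of the 6 were under 200. The log2 difference was −3.44 (standard error 0.66, adjusted p = 0.00595 from limma, n = 6 and 3). Top2a, the topoisomerase that untangles sister chromatids, had 935.8, 306.6 and 125.5 at 8 weeks and 124.8, 68.64 and 258.8 at 10 weeks, against 1625, 1727 and 2069 at 4 weeks. Its groups did not overlap, and its log2 difference was −3.11 (standard error 0.56, adjusted p = 0.00446). Mki67, the marker of cycling cells, had 1258, 527.3 and 337.6 at 8 weeks and 221.3, 146 and 574.8 at 10 weeks, against 2440, 2756 and 3103 at 4 weeks. Again 8 week replicate 1 was the highest of the later arrays, and the log2 difference was −2.78 (standard error 0.45, adjusted p = 0.00289).

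Genes of chromosome attachment and segregation fell alongside. Nuf2, a subunit of the kinetochore's microtubule-binding complex, had 15.61 to 215.9 (median 35.62) at 8 and 10 weeks, against 385.2, 417.2 and 539.1 at 4 weeks. Ncapg, a subunit of condensin, had 31.05 to 282.7 (median 67.53) at the later ages, against 544.5, 621.1 and 685.8 at 4 weeks. Hmmr, which acts at the spindle, differed by −3.31 and the kinase Ttk by −3.04 on the log2 scale, and Ttk lost its call without 4 week replicate 3. In all of these, 8 week replicate 1 was the highest later array. The 31 mitosis genes lay between −3.45 and −1.61 on the log2 scale.

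Rrm2, the subunit of ribonucleotide reductase that is made for S phase, had 466.7, 162.2 and 61.46 at 8 weeks and 158.2, 75 and 126 at 10 weeks, against 1187, 1294 and 1729 at 4 weeks. Its log2 difference was −3.32 (standard error 0.51, adjusted p = 0.00226), and 5 of the 6 later arrays were under 200. Pole, the catalytic subunit of DNA polymerase epsilon, had 72.92 to 282.8 (median 109.2) at 8 and 10 weeks, against 849, 849.1 and 913.3 at 4 weeks. Uhrf1, which keeps DNA methylation through replication, had 64.42 to 285.6 (median 121.7), against 799.1, 897.7 and 1134. Orc1, a subunit of the origin recognition complex, had 23.29 to 48.54 at the later ages, against 155.4 to 286.2 at 4 weeks, so that it was under 200 in all later arrays. Mcm6, of the helicase that opens the origin, fell less, to 469.4 to 1232 at 8 and 10 weeks, against 1986 to 2594 at 4 weeks (log2 difference −1.66). Exo1, an exonuclease of DNA repair, differed by −3.24 on the log2 scale and Depdc1a, a gene of mitotic cells, by −3.48. The probe set of H2ac4, a replication-dependent histone gene, differed by −3.30, but histone genes have near-identical copies and its signal may not be its own.

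**Figure D1:**
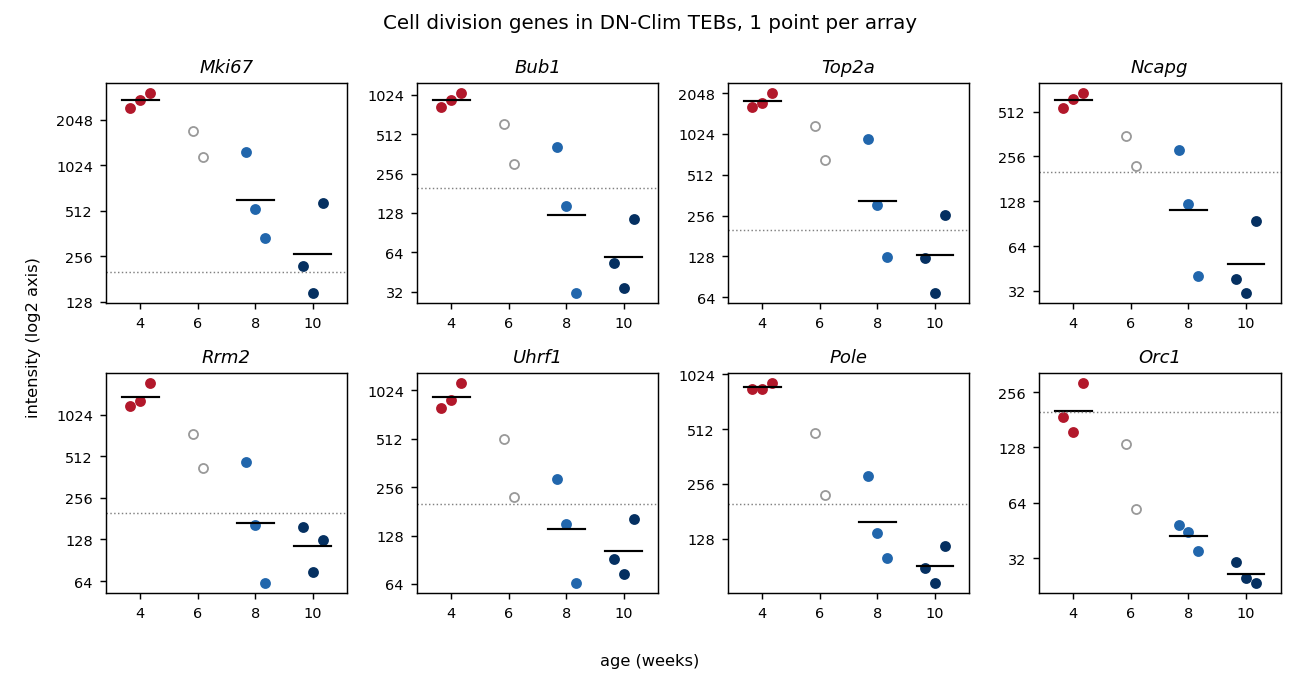
Intensity (log2 axis) of 8 cell division genes in DN-Clim TEBs against age in weeks, 1 point per array. Bars are geometric means of 3 arrays, open points are the 2 arrays at 6 weeks, which no test used, and the dotted line is the limit of 200. All arrays at 8 and 10 weeks lie below all arrays at 4 weeks, and 8 week replicate 1 is the highest of them in each panel.

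Genes that hold cells out of the cycle differed by less, with a list median of 0.23. Of 14 tested inhibitors of the cycle 1 rose, 1 fell and 12 did not pass the test. This is near the 9.45% higher and 11.1% lower of all genes, and nothing is read from the count. Rb1, the retinoblastoma protein that keeps E2F factors silent, had 2324, 1813 and 2093 at 8 weeks and 1503, 1985 and 1692 at 10 weeks, against 818.4, 773.7 and 722.8 at 4 weeks. Its lowest later array was well above the highest at 4 weeks, and the log2 difference was 1.29 (standard error 0.12, adjusted p = 0.000383). Cdkn1c, the inhibitor p57, fell by 0.49 on the log2 scale, a call that was lost without 4 week replicate 1 or 3. Genes of ribosome biogenesis fell by small steps together: 22 of 30 fell and none rose, with a median of −0.48 and all 30 differences below 0. Dkc1, a core protein of the H/ACA particles that modify ribosomal RNA, had 392.7 to 551.2 at 8 and 10 weeks, against 781.1 to 1041 at 4 weeks, with no overlap. Without 4 week replicate 3, 10 of the 30 fell.

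Of 22 tested genes of FGF and ErbB signaling, 3 rose and 6 fell, beside 9.45% and 11.1% of all genes. The list median was −0.08, and 3 fell without 4 week replicate 3. The 6 were the ligands Nrg1 and Tgfa and the 4 genes Etv4, Etv5, Dusp6 and Spry4. Tgfa, a ligand of the EGF receptor, had 314.8 to 366.7 at 8 and 10 weeks, against 403.5 to 504.5 at 4 weeks (log2 difference −0.42, adjusted p = 0.0211). Nrg1, the ligand of ErbB3 and ErbB4, had 34.28, 74.64 and 31.29 at 8 weeks and 30.39, 23.26 and 180 at 10 weeks, against 620.8, 457.8 and 575.2 at 4 weeks. All 6 later arrays were under 200 and the arrays at 4 weeks were all above it, and the log2 difference was −3.55 (standard error 0.57, adjusted p = 0.00279). Erbb3, a receptor of Nrg1, and Erbb2, the partner of Erbb3, lay the other way. Erbb3 had 2822 to 3770 at 8 and 10 weeks, against 1731 to 2315 at 4 weeks (log2 difference 0.65, standard error 0.13, adjusted p = 0.00595). Erbb2 had 1257 to 1712, against 1053 to 1120 (log2 difference 0.47, adjusted p = 0.0133), and lost its call without 4 week replicate 1 or 3.

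Etv4, an ETS factor induced by FGF and ERK signaling, had 219.7, 248 and 159.2 at 8 weeks and 214.1, 235.6 and 263.2 at 10 weeks, against 794.5, 737.6 and 808.7 at 4 weeks. The groups stood far apart, with a log2 difference of −1.82 (standard error 0.14, adjusted p = 0.000299). Its relative Etv5 had 276.9 to 489.2 at the later ages, against 992 to 1276 at 4 weeks (log2 difference −1.77, adjusted p = 0.000625). Dusp6, the phosphatase that ERK signaling induces against itself, differed by −0.97, and the feedback inhibitor Spry4 by −1.03 on the log2 scale, which was not called without 4 week replicate 1 or 3. Fgf2 rose by 0.94 on the log2 scale. Fgfr2, the FGF receptor of mammary epithelium, had 2174 to 4503 at 8 and 10 weeks and 2621 to 3758 at 4 weeks, with a log2 difference of 0.27 (standard error 0.23, adjusted p = 0.433).

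Of 34 Wnt genes tested, 2 rose and 5 fell, with a median of −0.08, which is near the 9.45% higher and 11.1% lower of all genes. Nothing is read from the count itself. The 2 largest falls in the list were those of secreted inhibitors. Wif1, which binds Wnt proteins, had 85.97, 62.44 and 111.3 at 8 weeks and 91.81, 86.49 and 84.14 at 10 weeks, against 447.2, 271.2 and 671.1 at 4 weeks. All 6 later arrays were under 200, and the log2 difference was −2.34 (standard error 0.27, adjusted p = 0.00086). Sfrp1, a soluble Frizzled-like protein, had 422.8 to 747.1 at the later ages, against 1008 to 1862 at 4 weeks (log2 difference −1.26, adjusted p = 0.00595). Wnt2, a ligand, fell by 0.77 on the log2 scale, a call that was lost in 7 of 24 alternatives. Znrf3, which removes Wnt receptors, and Lgr4, a receptor for R-spondins, fell by 0.63 and 0.48. Wnt5b rose by 0.72, and its call was lost whichever array at 4 weeks was left out. The count of genes that rose was 0 without 4 week replicate 1, when 3 fell. Axin2, a target of the pathway, had 217 to 329 at 8 and 10 weeks and 247.8 to 291.2 at 4 weeks, and the receptor Lgr5 had 109.1 to 309 and 158.4 to 213.4, with log2 differences of 0.06 and 0.07 that did not pass the test.

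Of the Clims and their partners, 9 were tested, 3 fell and none rose, beside 11.1% and 9.45% of all genes. Lmo4, the LIM-only partner of Clims in mammary epithelium, had 1366, 1516 and 1059 at 8 weeks and 931.3, 1400 and 1477 at 10 weeks, against 2332, 2313 and 2135 at 4 weeks. The groups did not overlap, and the log2 difference was −0.83 (standard error 0.16, adjusted p = 0.00605). Lmo1, another LIM-only gene, fell by 0.82 and Ssbp4, whose family binds Clims, by 0.46 on the log2 scale. Both lost their calls without 4 week replicate 3, Lmo1 also without replicate 1. Ldb1, which encodes Clim2, had 3442 to 4719 at the later ages and 3079 to 3438 at 4 weeks (log2 difference 0.27, adjusted p = 0.105). Ldb2, for Clim1, had 357.6 to 866.7 and 235.6 to 370.9 (log2 difference 0.79, adjusted p = 0.0558). Whether either probe set also reads the transgene was not tested.

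Of 17 factors linked to basal stem cells 1 rose and 3 fell, again near the 9.45% and 11.1% of all genes. Trp63, the p63 factor of basal cells, had 380.9 to 559.6 (median 490.3) at 8 and 10 weeks, against 767.2, 912.1 and 1032 at 4 weeks, a log2 difference of −0.90 (standard error 0.14, adjusted p = 0.00236). Bcl11a, a zinc finger factor of mammary progenitors, differed by −0.86 and Itga6, integrin alpha 6 of the basal surface, by −0.54, with no overlap in either. Of 19 basal and myoepithelial genes 5 fell and 1 rose. Jag2, a Notch ligand, had 410.5 to 492.3 at 8 and 10 weeks, against 729.1 to 792.5 at 4 weeks. Oxtr, the oxytocin receptor through which myoepithelial cells contract, had 1565, 1466 and 1005 at 8 weeks and 1602, 1231 and 761.4 at 10 weeks, against 462.2, 476.4 and 328 at 4 weeks. It was thus the basal gene that rose, with a log2 difference of 1.56 (standard error 0.24, adjusted p = 0.00214), while Krt5 had 821.1 to 1478 and 983.7 to 1463 (log2 difference −0.08, adjusted p = 0.832).

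Genes of mature luminal cells rose in part. The shares over all genes were 9.45% higher and 11.1% lower. Of 11 milk and alveolar genes 5 rose, none fell, and the median was 0.61, with 3 higher without 4 week replicate 2. Btn1a1, butyrophilin of the milk fat globule membrane, had 495.3, 746.4 and 935.5 at 8 weeks and 731.2, 467.8 and 1000 at 10 weeks, against 104.7, 188.1 and 79.43 at 4 weeks. All later arrays were above 200 and all arrays at 4 weeks below it (log2 difference 2.59, standard error 0.31, adjusted p = 0.00104). Trf, transferrin, had 5696 to 8657 at the later ages, against 2772 to 3617 at 4 weeks, and Mfge8, also of the fat globule membrane, 3429 to 4279, against 2213 to 2481. The caseins measured did not pass: Csn3 had 2980 to 5109 at 8 and 10 weeks and 4278 to 4934 at 4 weeks. Of 15 genes common to luminal cells 3 rose and none fell, of which Muc1, the mucin of the apical surface, moved most, with 581.6 to 1129 (median 845.4) at the later ages, against 191.9, 289.7 and 343.3 at 4 weeks (log2 difference 1.63, standard error 0.23, adjusted p = 0.00157). Krt18 had 5954 to 9121 and 6008 to 7087 (log2 difference 0.24, adjusted p = 0.275).

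Of 10 hormone-sensing genes, Prom1 rose and Cited1 fell, near the 9.45% and 11.1% of all genes. Cited1, a coactivator of the estrogen receptor, had 1188, 1210 and 2181 at 8 weeks and 556.9, 370.5 and 727.9 at 10 weeks, against 3447, 3591 and 4067 at 4 weeks. Every later array was lower than each array at 4 weeks, with a log2 difference of −2.07 (standard error 0.24, adjusted p = 0.000786). Of 11 luminal progenitor genes, Cd14, Kit and Elf5 rose and Aldh1a3 fell. Cd14, a receptor of innate immunity, had 729.3 to 1060 at 8 and 10 weeks, against 440.7 to 517.9 at 4 weeks (log2 difference 0.89). Kit kept its call except without 4 week replicate 3, while Elf5, Aldh1a3 and Prom1 each lost theirs without at least 2 of the arrays at 4 weeks, taken out in turn.

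Among the 12 largest rises, Tph1, the first enzyme of serotonin synthesis, had 1233, 1833 and 667.4 at 8 weeks and 3923, 836.7 and 916.8 at 10 weeks, against 35.06, 37.09 and 80.88 at 4 weeks. Arrays at 4 weeks were all under 200 and later arrays all above it, and the log2 difference was 4.77 (standard error 0.51, adjusted p = 0.000671). Its size is rough, since values under the limit set one side of it. Slc5a7, the choline transporter, had 460 to 921.5 (median 621.6) at 8 and 10 weeks, against 21.07, 77.77 and 135.6 at 4 weeks (log2 difference 3.39). Ache, acetylcholinesterase, had 120.5 to 881.4 (median 221), against 26.83 to 70.28 (log2 difference 2.74), with 8 week replicate 3 the highest. Slc5a7 and Ache were under 200 in all arrays at 4 weeks, so the sizes of both differences are rough too. Slc5a5, the sodium iodide symporter known from lactating glands, had 1364 to 4749 (median 2914), against 102.7, 449.9 and 831.7 (log2 difference 2.98, standard error 0.60, adjusted p = 0.00705).

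Others of the 12 largest rises were Nr1d1, the clock repressor REV-ERB alpha, which had 1680 to 3271 at 8 and 10 weeks, against 385 to 518.3 at 4 weeks, and Ctse, the protease cathepsin E, which had 868.3 to 3105, against 271.5 to 507.7. Their log2 differences were 2.38 and 2.23. Ccdc162 (2.56), St6galnac5 (2.18), a sialyltransferase, Iigp1 (2.39), an interferon-induced GTPase, Gm4951 (2.24) and Hepacam2 (2.26) also rose. Of 14 interferon-response genes, though, 1 rose and none fell, beside 9.45% and 11.1% of all genes. Beside Nrg1, 3 more of the 12 largest falls were of genes outside cell division. Serpinb11, of a family of protease inhibitors, had 5.352 to 47.4 at 8 and 10 weeks, against 308.8 to 359.2 at 4 weeks (log2 difference −4.28). Hpse2, heparanase 2, had 8.968 to 194.7, against 410.5 to 555.5, so that both were under 200 in all later arrays. Upk3a, a uroplakin of the urothelium, had 45.84 to 697.2, against 1167 to 2336, a call that was lost without 4 week replicate 2 or 3.

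**Figure D2:**
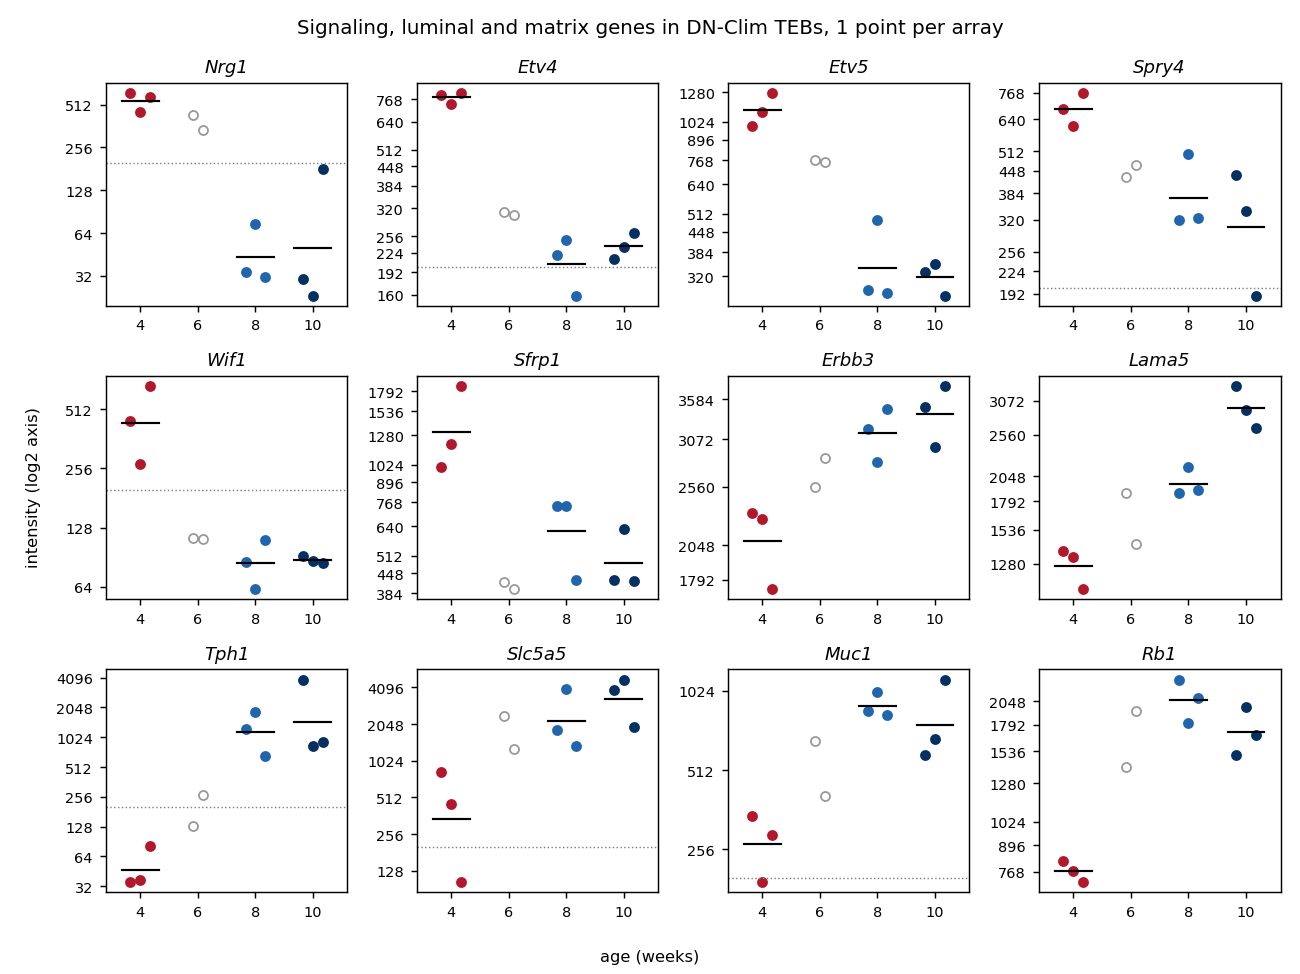
Intensity (log2 axis) of 12 signaling, matrix, transport and luminal genes in DN-Clim TEBs against age in weeks, 1 point per array. Bars are geometric means of 3 arrays, open points are the 2 arrays at 6 weeks, and the dotted line is the limit of 200 where it lies in range. In all 12 panels the arrays at 8 and 10 weeks lie apart from those at 4 weeks, below them in Nrg1, Etv4, Etv5, Spry4, Wif1 and Sfrp1 and above them in the other 6.

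In the matrix lists more genes fell than rose. Of 16 basement membrane genes 5 fell and 2 rose, beside 11.1% and 9.45% of all genes, and 1 fell with 8 weeks alone. Lama1, the alpha 1 chain of laminin, had 233.3, 274.8 and 136.8 at 8 weeks and 231.7, 218.5 and 270.9 at 10 weeks, against 785, 711.7 and 762 at 4 weeks. Lama5, the alpha 5 chain, lay the other way, with 1868 to 3321 at the later ages, against 1118 to 1372 at 4 weeks. The log2 differences were −1.76 (standard error 0.20, adjusted p = 0.000727) and 0.93 (standard error 0.11, adjusted p = 0.000811). Of 14 metalloproteinases and inhibitors 3 fell and none rose. Timp1, which inhibits matrix metalloproteinases, had 101.4 to 437.4 (median 249.4) at 8 and 10 weeks, against 936, 1236 and 1403 at 4 weeks (log2 difference −2.27, adjusted p = 0.00408). Mmp14, a protease of the cell surface, had 1614 to 2837, against 3133 to 3381.

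Markers of other cells in the sections also moved. Their counts stand beside 9.45% of all genes higher and 11.1% lower. Of 19 fibroblast and matrix genes 8 fell, none rose and the median was −0.42, with a summed intensity of 47080 to 61840 at 8 and 10 weeks and 54930 to 70970 at 4 weeks. Fn1, fibronectin, had 2302 to 5174 at the later ages, against 5897 to 7901 at 4 weeks, while Pdgfra, which marks fibroblasts themselves, had 1377 to 2345 and 1643 to 2228 and did not pass. Of 17 endothelial genes 9 rose, none fell and the median was 0.61, with sums of 10090 to 17640 and 9920 to 10790. Emcn, a sialomucin of vessels, had 958.6 to 1501, against 642.6 to 678.1. Without 4 week replicate 3, 1 of the 17 endothelial genes rose, and 5 of the 19 fibroblast and matrix genes fell. With 8 weeks alone, 1 of the 19 fell. Of 15 adipocyte genes 6 rose, with sums of 70180 to 105400 at 8 and 10 weeks and 68020 to 72070 at 4 weeks, and 2 rose without 4 week replicate 3.

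Of 7 pericyte genes 2 rose, as did 2 of 7 MHC class II genes and 2 of 11 lymphocyte and plasma cell genes. So did 2 of 3 Schwann cell genes and 1 of 7 mast cell genes, and no gene of these lists fell. The share of all genes that rose was 9.45%, and 11.1% fell. Alas2, the 1 red blood cell gene tested, rose as well. Most of these counts fell to 0 without 1 of the arrays at 4 weeks, while that of pericytes fell to 1. Of 14 macrophage genes none passed the test in either direction, with sums of 5482 to 10810 at the later ages and 6416 to 10720 at 4 weeks. Of 8 skeletal muscle genes none passed. No marker in these lists was under 1 on all 9 arrays. Some were under the limit of 200 on all 9. They were 4 of the 11 lymphocyte and plasma cell genes, 2 of the 7 MHC class II genes and 3 of the 8 skeletal muscle genes. The mast cell and Schwann cell lists each held 1 more. The part that these cells had in the differences of the epithelial genes was not tested.

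**Figure D3:**
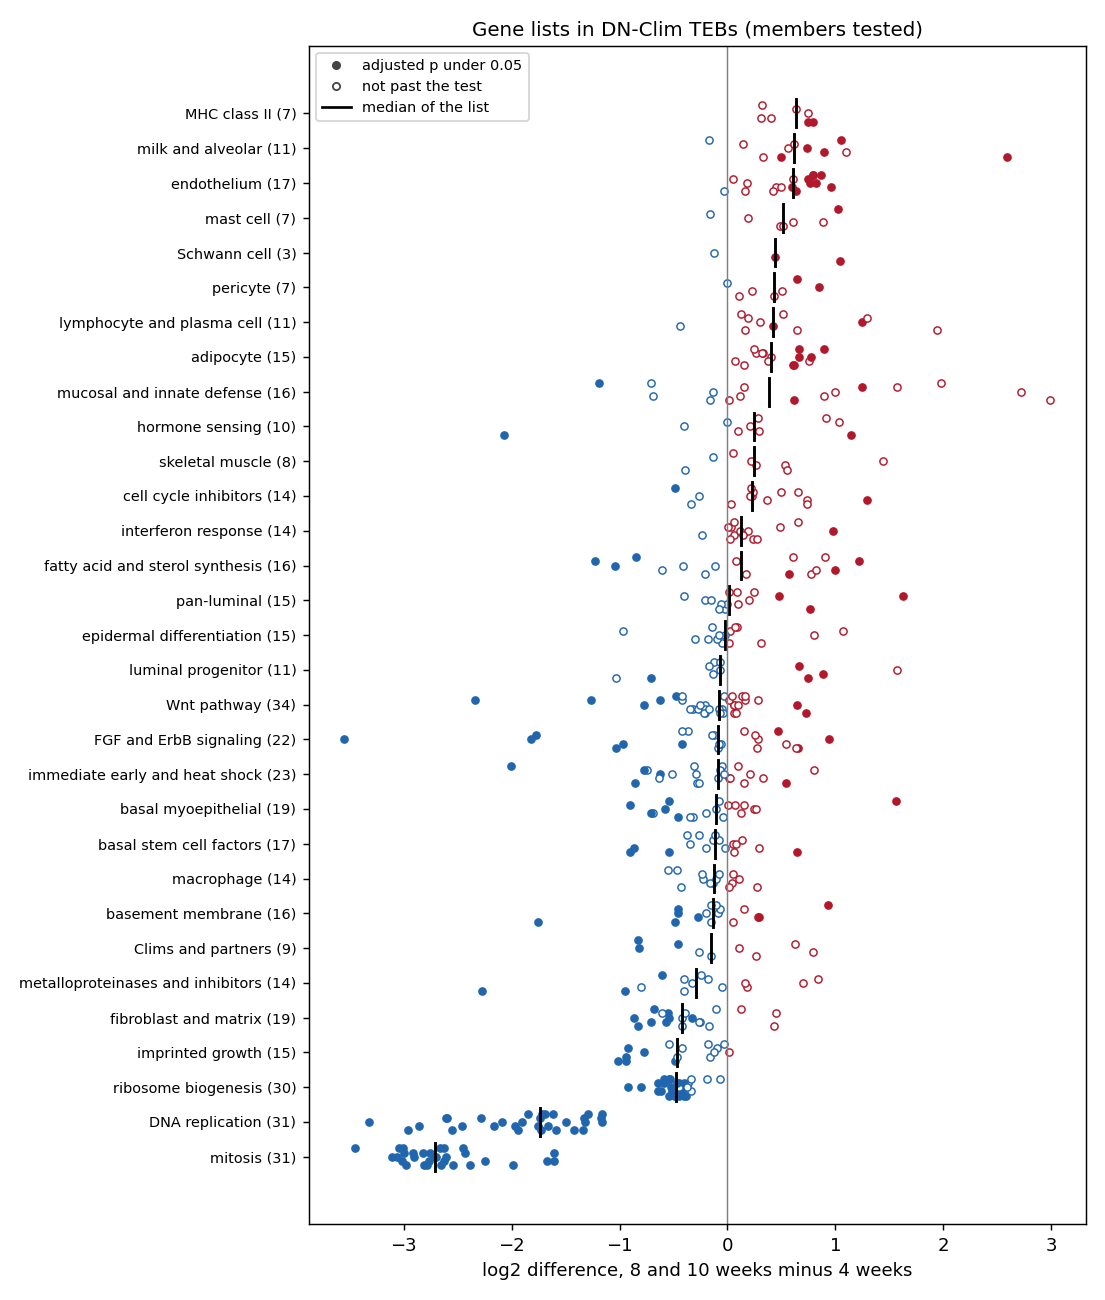
Log2 difference of each tested member of 31 gene lists, 8 and 10 weeks minus 4 weeks in DN-Clim TEBs, with the lists ordered by their median (black bar) and the number tested in brackets. Filled points passed the test. All members of the mitosis and DNA replication lists are filled and lie below −1, while most other lists hold points on both sides of 0.

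Of 15 imprinted growth genes 6 fell and none rose (median −0.47). Meg3, a maternally expressed noncoding RNA, had 568.1 to 1167 at 8 and 10 weeks, against 1289 to 1813 at 4 weeks. Without 4 week replicate 3, 2 of the 15 fell. Of 23 immediate early and heat shock genes 4 fell and 1 rose, and Egr2, a factor induced by growth signals, had 151.6 to 1129, against 990.6 to 1659, with 8 week replicate 2 the highest later array. Without 4 week replicate 3, none of the 23 fell. In lipid synthesis, 3 of 16 genes rose and 3 fell. Over all genes 9.45% rose and 11.1% fell, and nothing is read from the counts of these last 2 lists. Cyp51, of sterol synthesis, had 160.8 to 302.2, against 482.1 to 582.6, while the fatty acid gene Acly had 1904 to 8650, against 2098 to 2664, with both extremes in later arrays. Acly and Elovl6 lost their calls without any 1 of the arrays at 4 weeks.

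Dmbt1 and Muc16 varied widely between arrays of 1 age. Dmbt1, a secreted mucosal defense protein, had 2637, 514.4 and 333.4 at 8 weeks and 125.9, 597.9 and 1392 at 10 weeks, against 408.8, 44.47 and 23.82 at 4 weeks (log2 difference 2.99, standard error 1.02, adjusted p = 0.0631). Muc16, a membrane mucin, had 5.528 to 414.4, against 5.818 to 9.073 (log2 difference 2.72, adjusted p = 0.0535). All its arrays at 4 weeks were under 200. Of 16 mucosal and innate defense genes 2 rose and 1 fell, beside 9.45% and 11.1% of all genes. Cp, ceruloplasmin, rose with 2651 to 3312, against 1163 to 1300. None of 15 genes of epidermal differentiation passed, and Sprr1a, of the cornified envelope, had 1343 to 7047 and 1582 to 3037. R3hdml had 1256 to 2187 and 1419 to 2912.

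Between 10 and 8 weeks in DN-Clim TEBs, 1 of 13362 genes passed the test (0.00748%), and 994 had an unadjusted p under 0.05 (7.44%). The gene was Ly6e, a small GPI-anchored protein of the cell surface. It had 4785, 5929 and 6701 at 10 weeks, against 1862, 1934 and 1655 at 8 weeks (log2 difference 1.67, adjusted p = 0.014 from limma), and 4328, 5760 and 4217 at 4 weeks. Its value at 8 weeks was thus the one apart. DN-Clim ducts had 4632 to 6419 at 4 weeks, 1561 to 1905 at 8 weeks and 4515 to 8842 at 10 weeks. In WT TEBs the 3 arrays at 4 weeks had 1876, 5580 and 1686, so that low and high values stood within 1 age. No gene passed without 8 week replicate 1 or 3, or without 10 week replicate 2 or 3. Of the cell division genes, none was called between the 2 ages.

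The age difference in DN-Clim TEBs was then set against that in WT TEBs, with an interaction term over 16 arrays. It answers whether buds with the transgene change with age as others do. WT TEBs at 8 and 10 weeks against 4 weeks had 5815 called genes (43.5%, and 52.6% at an unadjusted p under 0.05). The share of all genes called higher was 18.7%, and 24.8% were lower. There 31 of 31 mitosis genes fell, with a median of −3.07. So did 31 of 31 replication genes, with a median of −2.06. In DN-Clim TEBs these medians were −2.71 and −1.74. The difference of the 2 age effects was called in none of the 62, and 1 of them had an unadjusted p under 0.05. For Bub1 that difference was 0.54 (standard error 0.91), for Nrg1 0.29 (standard error 0.78) and for Lmo4 0.03 (standard error 0.20). Errors of that size for Bub1 and Nrg1 leave room for a difference of 1 on the log2 scale in either direction.

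Of 13362 genes 5 differed in their age effect (0.0374%), all lower in DN-Clim TEBs, and 1515 had an unadjusted p under 0.05 (11.3%). Mmp3, stromelysin 1, had 442, 412.8 and 390.6 at 8 weeks and 272.4, 334.5 and 311.4 at 10 weeks, against 369.9, 347 and 589.6 at 4 weeks in DN-Clim TEBs. WT TEBs had 1491 and 1123 at 8 weeks and 483.8 and 343.9 at 10 weeks, against 238.8, 160.2 and 174.1 at 4 weeks. DN-Clim groups overlapped while WT groups did not, and the age effects differed by −2.20 (standard error 0.27, adjusted p = 0.012).

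Nnat, neuronatin, an imprinted gene, had 954.5 to 1778 at 8 weeks and 2757 to 3692 at 10 weeks, against 2822 to 3137 at 4 weeks in DN-Clim TEBs. In WT TEBs it had 2765 to 3411 and 6750 to 7564, against 2086 to 2501. Its effects differed by −1.60, with the 8 week arrays of DN-Clim mice the lowest of all. Serpina3n, a serine protease inhibitor, had 534.5 to 1040 at 8 and 10 weeks in DN-Clim TEBs, against 933.6 to 1176 at 4 weeks, and 1505 to 2295 in WT TEBs, against 660.2 to 980.1 (difference −1.78). Pltp, the phospholipid transfer protein, had 720.2 to 953.4, against 639.2 to 767.9, in DN-Clim TEBs and 1172 to 1612, against 606.3 to 649.1, in WT TEBs (difference −0.87). Npy1r, a receptor of neuropeptide Y, had 109.2 to 256.7, against 87.86 to 120.8, in DN-Clim TEBs and 262.2 to 425.8, against 56.29 to 86.64, in WT TEBs (difference −1.68). It was under 200 in all arrays at 4 weeks of both genotypes. The last 4 genes each had an adjusted p of 0.0464.

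**Figure D4:**
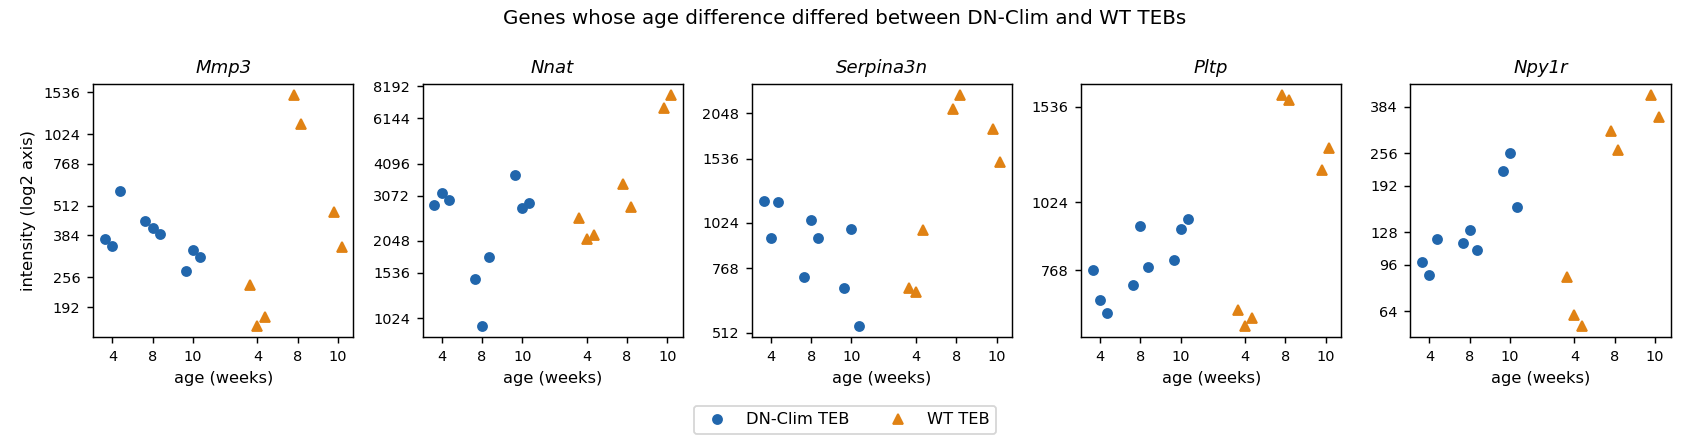
Intensity (log2 axis) of the 5 genes whose age effect differed between DN-Clim TEBs (circles, left of each panel) and WT TEBs (triangles, right), against age in weeks, 1 point per array. WT arrays at 8 and 10 weeks lie above those at 4 weeks in each panel, and those of DN-Clim mice overlap with 4 weeks.

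The number of genes called depended on single arrays. It was 0 without WT 8 week replicate 1, and 1 to 3 without any of 9 other arrays, among them DN-Clim replicates 1 and 3 at 4 weeks. It was 32 without DN-Clim 4 week replicate 2, 41 without DN-Clim 10 week replicate 2, 16 without DN-Clim 8 week replicate 2, 11 without DN-Clim 10 week replicate 3 and 10 without WT 10 week replicate 1. Beside these 5 genes, the markers of some other cells had lower age effects in DN-Clim TEBs without passing the adjusted test. Over all genes 765 of 13362 were lower and 750 higher at an unadjusted p under 0.05. Of 14 macrophage genes, 11 had an unadjusted p under 0.05, all lower, with a median difference of −0.80 over the list and of 0.05 over all genes. In WT TEBs 13 of the 14 were called higher, where 18.7% of all genes were. In DN-Clim TEBs none of the 14 was, where 9.45% of all genes were. For 17 endothelial genes the number with an unadjusted p under 0.05 was 8, all lower, with a median of −0.50, and for 19 fibroblast and matrix genes it was 8, all lower, with a median of −0.40. For 7 MHC class II genes it was 5, all lower, with a median of −1.21. The lipid synthesis list went the other way, with 6 of 16 genes higher, none lower and a median of 0.10. Of 8 skeletal muscle genes none had such a p. No gene of the macrophage, endothelial and fibroblast lists passed the adjusted test of the difference. The part that these cells had in Mmp3 and the others was not tested.

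Set against DN-Clim ducts, 0 genes differed in their age effect by limma over 18 arrays, and 700 had an unadjusted p under 0.05 (5.24%). TEB and duct arrays of the same number went together, and with the replicate number as a block 209 genes were called (1.56%). The age effect was higher in TEBs in 154 of them (1.15% of all genes) and lower in 55 (0.412%). DN-Clim ducts themselves had 4.51% of genes higher and 8.45% lower at 8 and 10 weeks than at 4 weeks (28.9% at an unadjusted p under 0.05). The count with the block ranged from 35 to 459 when 1 array was left out, and it was 35 without DN-Clim duct 4 week replicate 2. It was 42 without TEB 4 week replicate 2 and 459 without duct 8 week replicate 3. Timp1 was among the 209 (difference −1.86, adjusted p = 0.0127), with an age difference of −2.27 in TEBs and of −0.41 in ducts, and so was Oxtr (difference 1.42, adjusted p = 0.00751), with 1.56 in TEBs and 0.15 in ducts.

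Btn1a1 rose by more in TEBs (2.59) than in ducts (1.09), with a difference of 1.51 (adjusted p = 0.0161), and Etv4 fell by more (−1.82 and −1.17, difference −0.65, adjusted p = 0.0329). After Prkg1, 15 genes shared the next adjusted p of 0.00746, of which Lrp8 (−1.21), Traip (−0.92) and Snrpd1 (−0.63) had a lower age difference in TEBs than in ducts and the other 12 a higher one. Prkg1, a cGMP-dependent kinase, had 223.6 to 314.7 at 8 and 10 weeks, against 179.3 to 239.9 at 4 weeks in TEBs, and 235.3 to 319.3, against 328.7 to 415.4, in ducts (difference 0.82, adjusted p = 0.00664). Mmp3 had 272.4 to 442, against 347 to 589.6, in TEBs and 273.2 to 495.4, against 761 to 1264, in ducts (difference 1.09, adjusted p = 0.00746). In the mitosis list none of 31 genes was called with the block, and in the replication list 2 of 31 were. Medians were −2.71 in TEBs and −2.32 in ducts for mitosis, and −1.74 and −1.26 for replication.

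**Figure D5:**
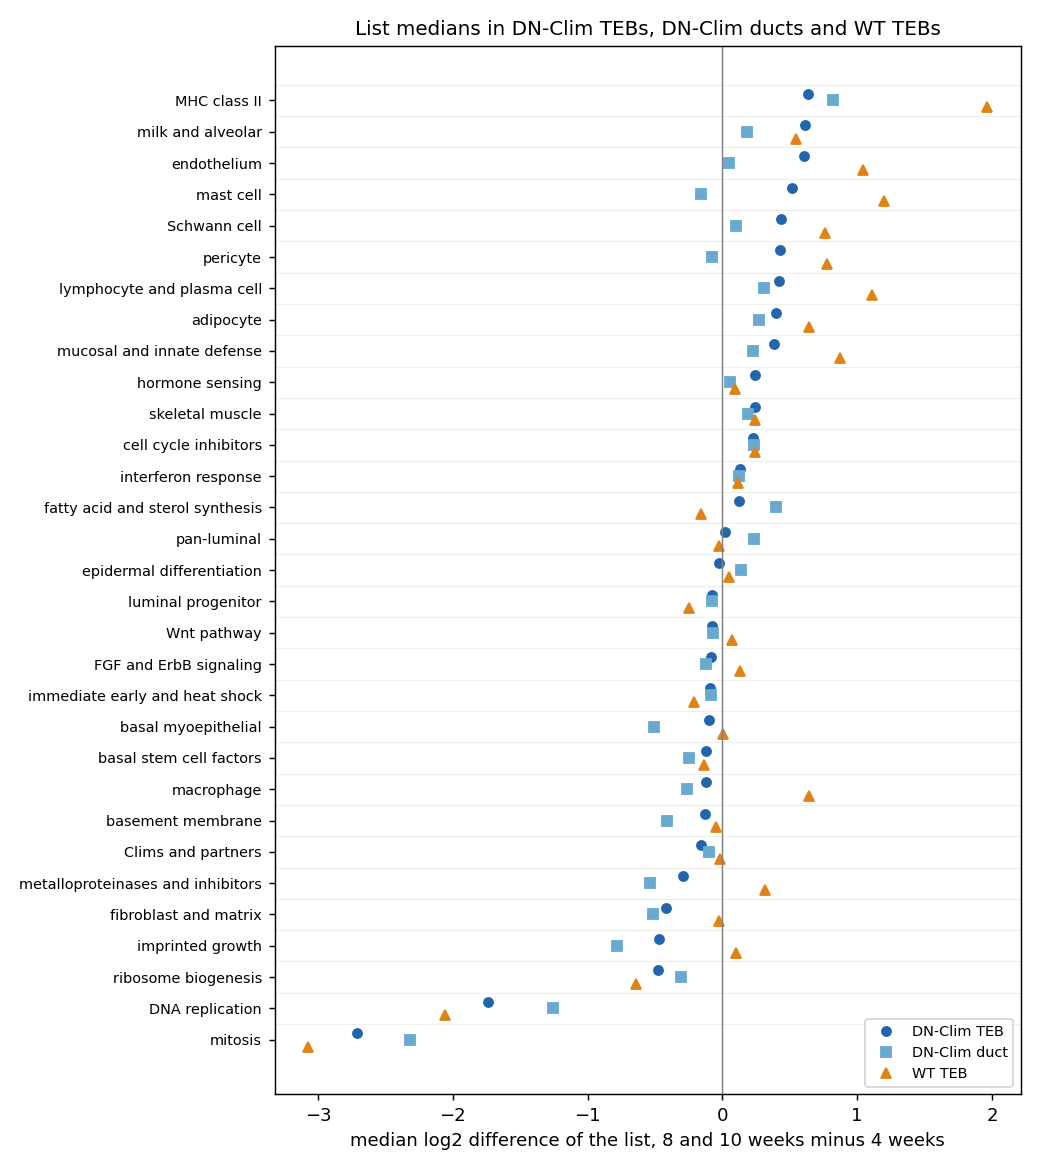
Median log2 difference of each of 31 gene lists, 8 and 10 weeks minus 4 weeks, in DN-Clim TEBs (circles), DN-Clim ducts (squares) and WT TEBs (triangles). The mitosis and DNA replication lists are lowest in all 3, and the macrophage median is −0.12, −0.27 and 0.64 in that order.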

How the data were processed

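The deposited values are probe set intensities on a linear scale, which the authors computed with PLIER. Its version was not given in the sources used here, nor were its settings. For the log2 scale, a floor of 1 was set. A probe set had to reach 200, the study's limit, on at least 1 of the 42 laser capture arrays, and 22693 of 35557 did. Of the 35557, 21789 carry 1 gene symbol in the platform annotation, 1621 several and 12147 none, and only the first were named. The probe set with the highest mean stood for a gene, giving 13362 genes. Among called genes, 145 had more than 1 probe set, and in 6 of these another probe set had the opposite sign, though none was called the opposite way.

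Groups were compared with limma 3.58.1 in R 4.3.3 (lmFit, eBayes with a variance trend), with Benjamini-Hochberg adjustment over all genes and a threshold of 0.05. The 9 arrays were fitted with a mean per age, and the mean of 8 and 10 weeks was set against 4 weeks. Interaction terms compared this with WT TEBs and DN-Clim ducts. The scripts were tested on simulated data. Replicate numbers were checked by the correlation of deviations from group means. For TEB and duct arrays of 1 age and number it was 0.429 to 0.835 in 9 pairs, so these were taken as pairs, with the number as a random block (duplicateCorrelation, consensus correlation 0.531). That they are 1 mouse is not stated in the labels.

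Genes named are the 12 largest rises and 12 largest falls among called genes without overlap and with a group mean of 200 or more, up to 4 called members of each list, up to 6 of each interaction, and 16 genes from the paper or an earlier account. Other list members are named as examples after their values were seen. The members and lists were chosen with earlier results of these data known. Alternatives were other normalizations, filters, floors and tests, other sets of arrays, the replicate block and leaving out each array. P-values set the difference between groups against the spread between arrays within them, and the number of arrays limits the precision. Only littermates were used at each age, so spread between litters is not covered.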

Additional observations from a re-analysis of the deposited data

Results flagged for a closer look

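In 11 of 130 named genes, 1 of the 6 arrays at 8 and 10 weeks stood apart from the other 5 by more than Dixon's limit, where chance alone gives about 1 in 20. Array 10 week replicate 3 was low in 5 of them: Nrp1 (792.9, next 1180), Pparg (1262, next 2070), Peg10 (153.7, next 266.5), Elovl6 (1474, next 4636) and Cyp51 (160.8, next 245.5). Array 8 week replicate 3 was high in Adam12 (654.2, next 411.6) and low in Lama1 (136.8, next 218.5). Array 10 week replicate 1 was low in Jag2 (410.5, next 460.5) and in H2-Eb1 (582.2, next 1012). Mcpt4 was high in 10 week replicate 2 (749.6, next 361) and St6galnac5 in 8 week replicate 1 (591.1, next 310.2).

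The age effect differed between DN-Clim and WT TEBs in Mmp3 (−2.20), Nnat (−1.60), Serpina3n (−1.78), Pltp (−0.87) and Npy1r (−1.68), as log2 differences from limma's interaction term. Between DN-Clim TEBs and ducts, with the replicate block, the 6 genes with the smallest unadjusted p were Prkg1 (0.82), Abcb1a (0.90), Dpep1 (1.16), Nt5e (0.84), Mmp3 (1.09) and Abtb1 (0.54). In all 6 the age effect, not the level, was higher in TEBs than in ducts. The adjusted p of 0.00746 of the last 5 was shared by 10 more genes, of which Lrp8 (−1.21), Traip (−0.92) and Snrpd1 (−0.63) had a lower age effect in TEBs.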

How the results depend on the processing

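Over 24 alternatives, 59 of 114 named genes that passed the test passed it in all, and 55 lost it in 1 or more, often without 1 of the 3 arrays at 4 weeks. Of 16 that did not pass, 7 passed in 1 or more. Of the 114, Ly6e changed sign, to 0.28 with 10 weeks alone, and differences of genes that did not pass, such as Nnat and Krt5, also crossed 0. Leaving out 1 array gave 1194 to 2875 genes in the main comparison, 474 to 1475 higher and 720 to 1599 lower. With 8 weeks alone 980 genes were lower, and with 10 weeks alone 827 were higher. Cyber-T called 3639 genes and the replicate number as a block 2375, though numbers did not pair the ages (correlations −0.323 to 0.161). For the difference between DN-Clim and WT TEBs, quantile normalization gave 47 genes, a common mean and variance 51, the replicate block 1 (numbers did not pair the genotypes, −0.329 to 0.284), and leaving out 1 array 0 to 41. For DN-Clim TEBs and ducts the replicate block gave 209 genes in place of 0, a floor of 64 gave 1, and leaving out 1 array 0 to 0. With the block, settings added after seeing the data gave 35 without a filter, and 35 to 459 without 1 array. Between 10 and 8 weeks, leaving out 1 array gave 0 to 2. The block changed no other call of these counts by over 1.5 times. The cause of these changes was not tested. Values under 200 lie near the study's limit of expression, where differences are less certain.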

Other observations

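Glycam1, a mucin-like glycoprotein of milk and of lymph node vessels, was at 11840 in DN-Clim TEB 10 week replicate 3 and at 14880 and 4655 in the 2 arrays at 6 weeks. The other 5 arrays at 8 and 10 weeks had 92.03 to 173.7, and those at 4 weeks had 112.8 to 139.7. The gene was singled out after its values were seen. In the main comparison it did not pass the test, with a log2 difference of 1.1 (standard error 1.21, adjusted p = 0.56 from limma). The summed intensity of the mitosis genes was 26970 to 37800 at 4 weeks, 17920 and 11310 at 6 weeks and 2551 to 16500 at 8 and 10 weeks, with 8 week replicate 1 the only later array above the lower 6 week value.

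Clock genes were looked at after the rise of Nr1d1 was seen, so they are given as values only. Dbp had 884.6 to 1649 at 8 and 10 weeks and 405.7 to 454 at 4 weeks, and Cry1 had 164.3 to 330.9 and 355.4 to 409. Per2 had 837.5 to 910.1 at 4 weeks, 313.4 to 844.7 at 8 weeks and 1229 to 1676 at 10 weeks. Arntl had 262.6 to 349.6 at 4 weeks, 235.5 to 581.1 at 8 weeks and 193 to 253.2 at 10 weeks. No hour of collection was found in the labels or methods.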
